A study of Mus musculus with 4 samples.

Results

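The genes described are 10 that encode components of elastic fibres and of the microfibrils that carry them, taken by gene name from a table of 55228 genes: Eln, Fbn1, Fbn2, Mfap2, Mfap4, Mfap5, Fbln1, Fbln2, Fbln5 and Efemp2. All 10 were found in the table and all 10 passed the filter on low counts, as did 16639 genes in all. Rib cartilage cells were taken from C57BL/6 mouse embryos at E17.5, a late embryonic stage, and their total RNA was sequenced. The 2 Trim28 KO libraries and the 2 WT libraries shared strain, stage and tissue, and differed in the Trim28 genotype. The labels do not say how or in which cells Trim28 was deleted, nor whether a genotype's libraries represent different embryos, so the p-values measure the spread between these libraries, which may be technical.

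Elastic fibres consist of an elastin core laid down on a scaffold of microfibrils. Fibrillins are the backbone of microfibrils, and the small glycoproteins MAGP-1 and MAGP-2, encoded by Mfap2 and Mfap5, bind to them. Fibulins bridge elastin, fibrillin and the lysyl oxidases that cross-link elastin, and fibrillin microfibrils also hold latent TGF-beta and BMPs in the matrix. In the growing skeleton, fibrillin microfibrils occur in the perichondrium and around chondrocytes, whereas hyaline cartilage holds few elastic fibres.

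Library totals ran from 18616896 to 20082123 counts. Levels are given in CPM, counts divided by each library's size after correction with TMM factors. On that scale a count of 3 stood for 0.151 to 0.159 CPM, far below all 10 genes, and such limits cover counting error only. Trim28 stood at 51.1 and 54.5 CPM in Trim28 KO and at 225 and 186 CPM in WT, lower in both Trim28 KO libraries than in either WT library. The 9 chondrocyte markers were present in every library, and none of the 9 was called. They summed to 85612 and 108370 CPM in Trim28 KO and to 115940 and 86596 CPM in WT. Col2a1 alone gave 58700 and 74388 CPM of these sums in Trim28 KO, against 79631 and 55512 CPM in WT. The genotypes did not overlap in 4 of the 9, in both directions, beside 58.0% of all genes tested.

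Of the 10 genes, Fbln5, Fbn2 and Efemp2 rose in Trim28 KO, Mfap4 fell, and 6 did not pass the test. Among all genes tested, 8.64% rose and 8.77% fell, together 17.4%, and among the 9799 genes averaging 10 CPM or more, a level that all 10 reached, the share called was 17.3%. Calls required an adjusted p under 0.05 in edgeR's quasi-likelihood test (Benjamini-Hochberg over all genes tested). The log2 fold changes ran from -0.95 to 0.94 around a median of 0.20, against a median of -0.02 over all genes tested. The levels in Trim28 KO and WT did not overlap in 6 of the 10 genes, a pattern that 58.0% of all genes tested showed. In 5 of these 6 the Trim28 KO libraries were the higher, as in 28.3% of all genes tested, and in 1 they were the lower, as in 29.7%. The median was 0.20 without Trim28 KO 1, 0.12 without Trim28 KO 2, 0.29 without WT 1 and 0.075 without WT 2. Fewer genes were called without Trim28 KO 1 or without Trim28 KO 2, both among the 10 and among all genes tested. The called changes thus went in both directions, and none exceeded 2-fold.

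**Figure D1:**
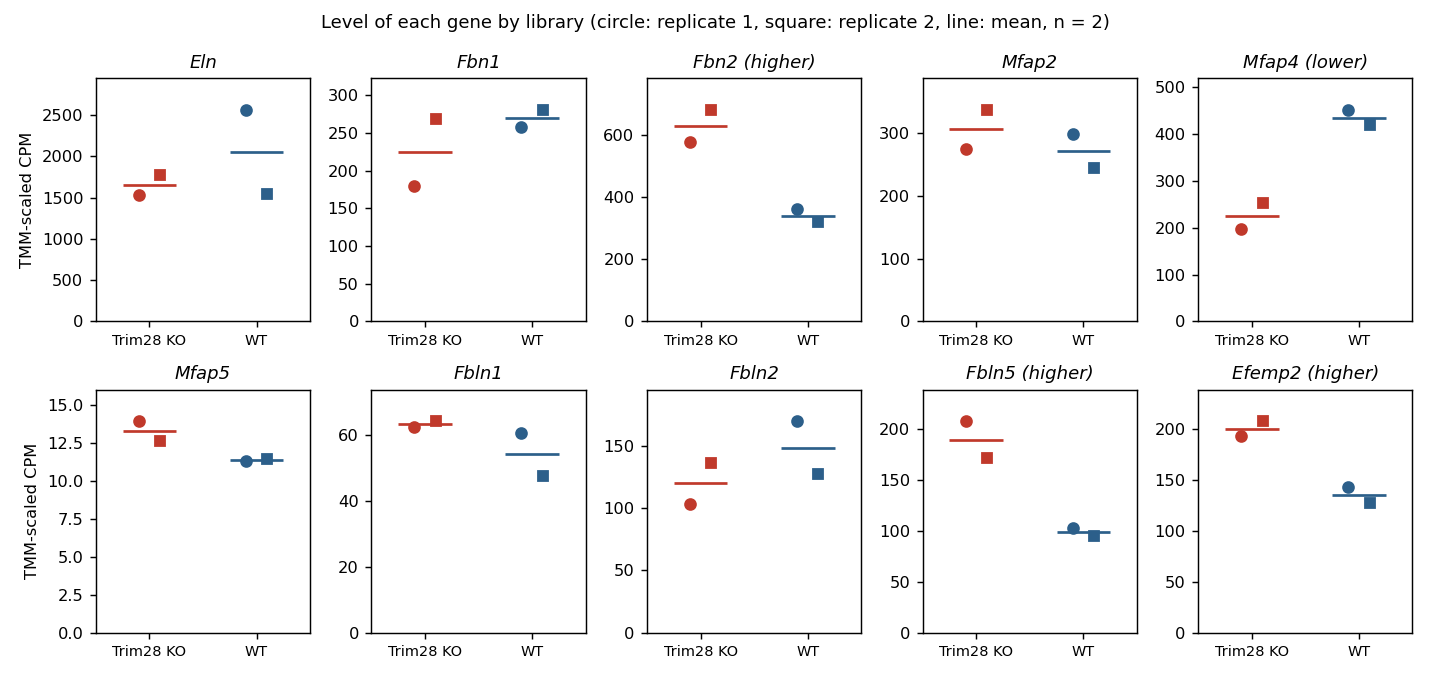
Level of each of the 10 genes in TMM-scaled CPM (vertical axes from 0) in the Trim28 KO and WT libraries, with circles for replicate 1, squares for replicate 2 and a line at the mean. Fbn2, Fbln5 and Efemp2 lay higher and Mfap4 lower in both Trim28 KO libraries, whereas Eln in WT ranged from 1539 to 2560 CPM.

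Eln encodes tropoelastin, the soluble subunit of elastin, and lies on chromosome 5, bases 134702593 to 134747323, minus strand of GRCm38. It had 1536 and 1775 CPM in Trim28 KO, against 2560 and 1539 CPM in WT. The WT 1 library alone stood above the other three, and the genotypes overlapped. The log2 fold change was -0.31 ± 0.25 SE over 2 libraries per genotype (edgeR quasi-likelihood adjusted p = 0.448). Without WT 1 it was 0.13, so the sign rested on that library. Eln took 0.160% and 0.178% of all counts in Trim28 KO, against 0.240% and 0.156% in WT.

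Of the fibrillins, Fbn2 rose and Fbn1 was not called. Fbn2 encodes fibrillin-2, which is made mainly in the embryo and lies on chromosome 18, bases 58008623 to 58210487, minus strand. It had 579 and 680.0 CPM in Trim28 KO, against 361 and 320 CPM in WT. Both Trim28 KO libraries exceeded both WT libraries, and Fbn2 rose 1.85-fold (log2 fold change of 0.89 ± 0.21 SE over 2 libraries per genotype, edgeR quasi-likelihood adjusted p = 0.00432). The call was lost without Trim28 KO 2, where the log2 fold change was 0.77 (adjusted p = 0.0522 by the same test, in a range from 5.27e-05 to 0.0522 over the alternatives). Fbn1 encodes fibrillin-1, the main fibrillin of postnatal tissue and the gene mutated in Marfan syndrome, and lies on chromosome 2, bases 125300594 to 125507993, minus strand. It had 180.1 and 269 CPM in Trim28 KO, against 259 and 281 CPM in WT. Trim28 KO 1 was the lowest of the 4 libraries and Trim28 KO 2 lay between the WT libraries. Its log2 fold change of -0.26 ± 0.22 (adjusted p = 0.450 by the same test) became 0.0052 without Trim28 KO 1. On the GENCODE M21 annotation, 20.1% of the exon bases of Fbn1 are shared with Gm9913 on the other strand, and fragments lying there would have gone uncounted.

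The balance of the fibrillins can be read within each library, free of the scaling between libraries. Per exon base, the ratio of Fbn2 to Fbn1 was 2.95 and 2.32 in Trim28 KO, against 1.28 and 1.05 in WT. Fbn2 thus made up 74.7% and 69.9% of the fibrillin counts per base in Trim28 KO, against 56.1% and 51.1% in WT. The genotypes did not overlap, and the mean log2 ratio differed by 1.18 (SD of 0.24 in Trim28 KO and 0.21 in WT, n = 2 each). An exact two-sided permutation test gave p = 0.333, the smallest that 2 against 2 libraries allow. The shares rest on the full exon length of Fbn1. With Fbn1 counts divided by the 9686 exon bases not shared with Gm9913, Fbn2 made up 70.2% and 64.9% in Trim28 KO. In WT it made up 50.5% and 45.5%, so whether Fbn2 was the larger share in WT depended on that length. The length was the same in every library, so the difference in mean log2 ratio could not change and was not checked by this step.

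**Figure D2:**
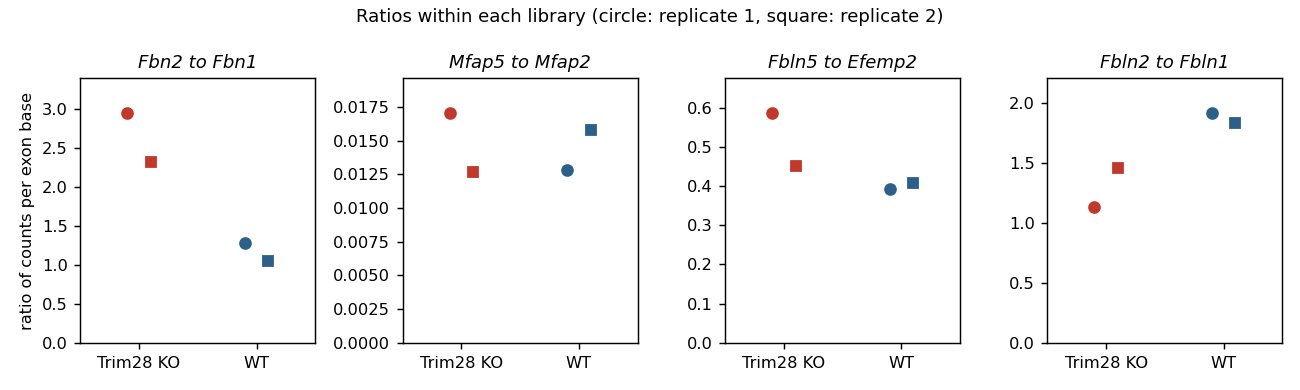
Ratio of counts per exon base between paired genes within each library (vertical axes from 0), for Trim28 KO and WT, with circles for replicate 1 and squares for replicate 2. The Fbn2 to Fbn1 ratio was 2.32 or more in Trim28 KO and 1.28 or less in WT, whereas the Mfap5 to Mfap2 ratio overlapped.

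Among the microfibril-associated proteins, Mfap4 fell and the genes of MAGP-1 and MAGP-2 were not called. Mfap4 encodes a fibrinogen-related glycoprotein that binds elastin and fibrillin and is unrelated in sequence to the MAGPs, and it lies on chromosome 11, bases 61485431 to 61488900, plus strand. It had 197 and 252 CPM in Trim28 KO, against 451 and 419 CPM in WT. Both Trim28 KO libraries lay below both WT libraries, and Mfap4 fell 1.94-fold (log2 fold change of -0.95 ± 0.21 SE over 2 libraries per genotype, edgeR quasi-likelihood adjusted p = 0.00231). The call was lost without Trim28 KO 1, where the log2 fold change was -0.78 (adjusted p = 0.0776 by the same test, in a range from 4.28e-05 to 0.0776 over the alternatives). The annotation places 4.63% of its exon bases under the antisense neighbour Mapk7, itself not called at a log2 fold change of 0.04.

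Mfap2 (chromosome 4, bases 141010418 to 141015984, plus strand) had 275 and 336 CPM in Trim28 KO, against 298 and 243 CPM in WT. The genotypes overlapped, with a log2 fold change of 0.18 ± 0.21 (edgeR quasi-likelihood adjusted p = 0.620). Mfap5 (chromosome 6, bases 122505845 to 122529290, plus strand) was the scarcest of the 10, with 13.9 and 12.6 CPM in Trim28 KO, against 11.3 and 11.4 CPM in WT. Its Trim28 KO libraries lay above its WT libraries by a small margin, and the log2 fold change of 0.22 ± 0.21 was not called (adjusted p = 0.515 by the same test). Per exon base, the ratio of Mfap5 to Mfap2 was 0.0170 and 0.0126 in Trim28 KO, against 0.0128 and 0.0158 in WT, so MAGP-1 transcripts far outnumbered those of MAGP-2 in both genotypes.

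The short fibulins that assemble elastic fibres, Fbln5 and Efemp2, both rose. Fbln5 encodes fibulin-5, which binds tropoelastin, LOXL1 and integrins and is needed for elastic fibres in mice. It lies on chromosome 12, bases 101746565 to 101819055, minus strand. It had 207 and 171 CPM in Trim28 KO, against 103 and 95.1 CPM in WT. No library of one genotype overlapped the other, and Fbln5 rose 1.91-fold (log2 fold change of 0.94 ± 0.20 SE over 2 libraries per genotype, edgeR quasi-likelihood adjusted p = 0.00169). It was called under every alternative tried, with an adjusted p of at most 0.0453.

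Efemp2 encodes fibulin-4, which brings lysyl oxidase to elastin and is also needed for elastic fibres in mice, and it lies on chromosome 19, bases 5473954 to 5482517, plus strand. It had 194 and 208 CPM in Trim28 KO, against 143 and 128 CPM in WT. The genotypes did not overlap, and Efemp2 rose 1.48-fold, just inside the threshold (log2 fold change of 0.57 ± 0.20, edgeR quasi-likelihood adjusted p = 0.0494). Leaving out any 1 library ended the call: the adjusted p was 0.134 without Trim28 KO 1, 0.191 without Trim28 KO 2, 0.0589 without WT 1 and 0.165 without WT 2, with log2 fold changes from 0.51 to 0.67. Upper-quartile scaling (adjusted p = 0.0605) and a stricter filter (adjusted p = 0.0545) also ended it. Efemp2 shares 4.57% of its exon bases with the antisense neighbour Mus81, itself not called at a log2 fold change of 0.35. Per exon base, the ratio of Fbln5 to Efemp2 was 0.587 and 0.452 in Trim28 KO, against 0.393 and 0.407 in WT.

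The promoters of these genes are shown because both rose. The RefSeq table on GRCm38.p6 held promoters for 6 of the 10 genes. The 250 bases before the start nearest to the main annotated transcript are printed 5′ to 3′, with capitals at matches on either strand to GGGCGG, the core of the Sp1 motif, and CAGAC, a SMAD motif. Fbln5 is read from the minus strand at chr12:101819120-101819369, and Efemp2 from the plus strand at chr19:5473696-5473945.
Fbln5: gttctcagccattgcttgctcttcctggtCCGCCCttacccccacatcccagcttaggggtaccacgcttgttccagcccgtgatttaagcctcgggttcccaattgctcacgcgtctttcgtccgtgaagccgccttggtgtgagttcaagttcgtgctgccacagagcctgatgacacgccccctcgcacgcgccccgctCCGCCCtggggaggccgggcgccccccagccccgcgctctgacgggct
Efemp2: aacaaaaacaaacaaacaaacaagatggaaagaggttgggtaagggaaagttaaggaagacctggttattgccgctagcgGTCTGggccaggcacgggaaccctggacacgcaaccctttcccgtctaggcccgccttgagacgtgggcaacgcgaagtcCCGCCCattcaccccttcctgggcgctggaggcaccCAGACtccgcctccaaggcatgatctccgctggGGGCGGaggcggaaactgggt
GGGCGG matched at 2 places in each, and 32.7% of the 32851 promoter windows of this length in the table held it. CAGAC matched at 2 places in Efemp2 and at none in Fbln5, and 42.2% of the windows held it. The AP-1 motif TGANTCA matched neither and was held by 6.75% of the windows, and TATAAA matched neither and was held by 12.4%. No 2 of the marked matches overlapped. These are matches of letters and not measured binding sites.

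The larger fibulins were not called. Fbln1 encodes fibulin-1, found in basement membranes and elastic fibres, and lies on chromosome 15, bases 85205949 to 85286535, plus strand. It had 62.4 and 64.0 CPM in Trim28 KO, against 60.6 and 47.6 CPM in WT. The Trim28 KO libraries lay just above the WT libraries, and the log2 fold change was 0.22 ± 0.19 (edgeR quasi-likelihood adjusted p = 0.466). Fbln2 encodes fibulin-2, a partner of fibrillin-1, perlecan and versican, and lies on chromosome 6, bases 91212455 to 91272540, plus strand. It had 103 and 136 CPM in Trim28 KO, against 169 and 127 CPM in WT. The genotypes overlapped, with a log2 fold change of -0.31 ± 0.21 (adjusted p = 0.345 by the same test). Within a library and per exon base, the ratio of Fbln2 to Fbln1 was 1.14 and 1.46 in Trim28 KO, against 1.92 and 1.84 in WT. That ratio did not overlap between genotypes, with a mean log2 difference of -0.54 (exact two-sided permutation p = 0.333, the smallest possible).

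**Figure D3:**
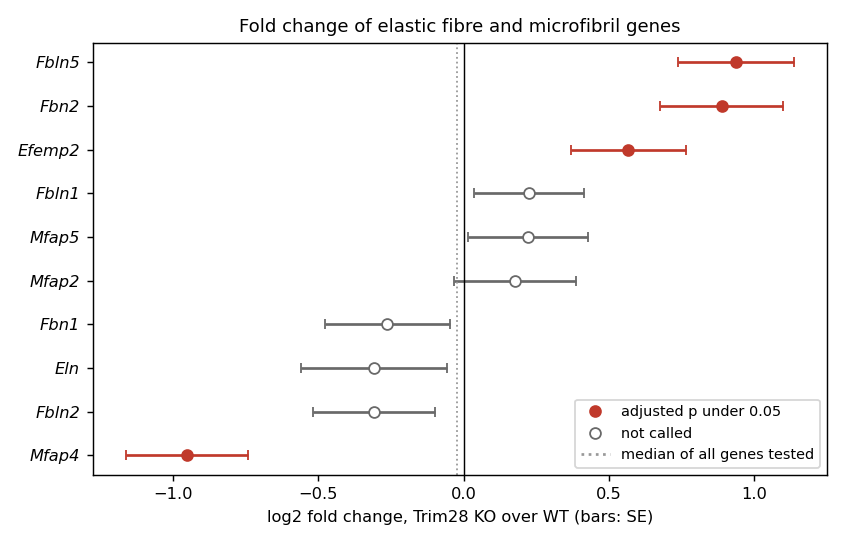
Log2 fold change of each gene, Trim28 KO over WT, with bars of 1 SE, filled where the adjusted p was under 0.05; the dotted line is the median of all genes tested (-0.02). Fbln5, Fbn2 and Efemp2 lay to the right at 0.57 to 0.94, and Mfap4 alone lay to the left beyond the threshold at -0.95.

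Divided by exon length, levels can be set side by side between genes. In Trim28 KO the order of mean CPM per kilobase was Mfap2 (252), Eln (204), Mfap4 (117), Efemp2 (53.0), Fbn2 (47.6), Fbln5 (27.4), Fbln2 (18.8), Fbn1 (18.5), Fbln1 (14.5) and Mfap5 (3.69). In WT it was Eln (253), Mfap4 (226), Mfap2 (223), Efemp2 (35.8), Fbn2 (25.7), Fbln2 (23.3), Fbn1 (22.2), Fbln5 (14.3), Fbln1 (12.4) and Mfap5 (3.17). The first 3 genes of the WT order overlapped in their ranges over libraries, as did Fbn2 with Fbln2, Fbln2 with Fbn1, and Fbln5 with Fbln1. In Trim28 KO, Efemp2 overlapped with Fbn2 and Fbln2 with Fbn1, and every other neighbour in the order was separate. Mfap4 thus stood level with Eln and Mfap2 in WT and below both in Trim28 KO. Fbln5 lay above Fbn1 and Fbln2 in Trim28 KO and below both in WT. Per unshared exon base, Fbn1 stood at 18.6 and 27.8 CPM per kilobase in Trim28 KO, where it overlapped with Fbln5, and at 26.7 and 29.0 in WT, where it overlapped with Fbn2 and lay above Fbln2, so its place in both orders depends on that length. These levels are per base of all annotated exons and are low for genes whose cells use only part of them.

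**Figure D4:**
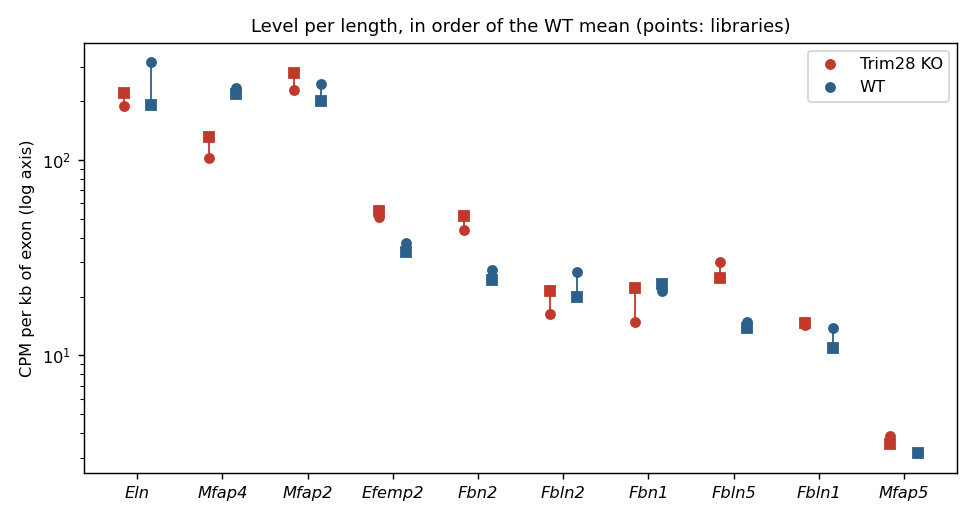
Level per kilobase of exon (log axis, CPM per kb) in each library of Trim28 KO and WT, genes in order of the WT mean, with circles for replicate 1, squares for replicate 2 and a line joining the libraries of a genotype. Eln, Mfap4 and Mfap2 lay between 190.1 and 316 in WT, while Mfap4 in Trim28 KO lay at 103 and 131.

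Genes that act with elastic fibres and microfibrils were read from the same test, in 8 lists of 54 genes. Of the 50 tested, 8 rose and 9 fell, together 34%, against 17.4% of all genes tested. The lists were chosen with earlier results of these data known, so the 34% is a description and not a test of these genes. Of 5 lysyl oxidase genes, Loxl4 fell, none rose, and the other 4 lay between -0.15 and 0.27 on the log2 scale. Loxl4 had 168 and 258 CPM in Trim28 KO, against 463 and 517 CPM in WT (log2 fold change of -1.20 ± 0.23, edgeR quasi-likelihood adjusted p = 5.04e-04). It was called under all 12 alternatives.

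Of 4 latent TGF-beta binding proteins, which resemble fibrillins and tether latent TGF-beta to microfibrils, Ltbp1 rose and none fell. Ltbp1 had 82.5 and 111 CPM in Trim28 KO, against 63.6 and 65.2 CPM in WT (log2 fold change of 0.59 ± 0.20, edgeR quasi-likelihood adjusted p = 0.0439). The call was lost without Trim28 KO 2 (log2 fold change of 0.36, adjusted p = 0.363), without WT 1 (adjusted p = 0.0786) and with upper-quartile scaling (adjusted p = 0.0536). Of 4 other fibulins and hemicentins, Fbln7, which encodes the short fibulin-7, rose and none fell. Efemp1, a further fibulin gene, was scarce, with 1.70 and 1.96 CPM in Trim28 KO, against 1.54 and 2.17 CPM in WT. Its log2 fold change of -0.02 ± 0.39 was not called. Fbln7 had 214 and 249 CPM in Trim28 KO, against 139 and 145 CPM in WT (log2 fold change of 0.70 ± 0.20, adjusted p = 0.0156 by the same test), and without Trim28 KO 2 it missed the threshold (adjusted p = 0.126). Of 5 EMILIN and multimerin genes, which encode glycoproteins with an EMI domain, Emilin3 fell and none rose, around a median of -0.57 that became -0.36 without WT 2. Emilin3 had 8.34 and 18.7 CPM in Trim28 KO, against 94.8 and 64.2 CPM in WT (log2 fold change of -2.55 ± 0.45, adjusted p = 0.0236 by the same test). With the replicate number as a block it was -2.61 and was not called (adjusted p = 0.229). Emilin1, the most abundant of the 5, had 779 and 933.5 CPM in Trim28 KO, against 745 and 493 CPM in WT. Its log2 fold change of 0.47 ± 0.23 was not called (edgeR quasi-likelihood adjusted p = 0.175).

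Several ADAMTS and ADAMTS-like proteins bind fibrillins or belong to families that do. Of 10 such genes, 1 rose and 4 fell, around a median of -0.32. Without Trim28 KO 1 fewer of the 10 were called, as of all genes tested, and the median was -0.10. Without Trim28 KO 2 the median was -0.56. Adamtsl5, which encodes a fibrillin-binding protein, showed the largest rise of all 8 lists. It had 26.2 and 25.7 CPM in Trim28 KO, against 3.03 and 2.63 CPM in WT (log2 fold change of 3.20 ± 0.23, edgeR quasi-likelihood adjusted p = 6.30e-10). It was called under all 12 alternatives, between 3.12 and 3.32. Adamts17, whose human relative is mutated in a Weill-Marchesani-like syndrome of short stature, had 7.72 and 10.4 CPM in Trim28 KO, against 21.8 and 16.3 CPM in WT (log2 fold change of -1.07 ± 0.22, adjusted p = 0.00137). Adamts10, a fibrillin-1-binding protease and the fifth called gene, had 139.9 and 167 CPM in Trim28 KO, against 257 and 239 CPM in WT (log2 fold change of -0.69 ± 0.20, adjusted p = 0.0185). Adamtsl1 had a log2 fold change of -0.89 ± 0.21. Adamts19 was scarce, with 10 and 4 counts in Trim28 KO against 36 and 37 in WT (log2 fold change of -2.39 ± 0.51). Without Trim28 KO 1, Adamts17 (adjusted p = 0.0722), Adamts10 (adjusted p = 0.207) and Adamtsl1 (adjusted p = 0.151) were not called, Adamts10 was also not called without WT 1 (adjusted p = 0.0719), and Adamts19 was not called without Trim28 KO 2 (adjusted p = 0.0650).

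Of 9 genes of proteases that cleave elastin or activate such proteases, 6 were tested, of which Ctsl and Ctss rose and Mmp9 and Ctsk fell. Mmp9 encodes gelatinase B and had 43.3 and 58.5 CPM in Trim28 KO, against 684 and 516 CPM in WT. Ctsk encodes the collagen- and elastin-cleaving cathepsin K of osteoclasts, and had 173 and 158 CPM in Trim28 KO, against 279 and 278 CPM in WT (log2 fold change of -0.75 ± 0.20, edgeR quasi-likelihood adjusted p = 0.0105). Ctss encodes the elastolytic cathepsin S of macrophages and had 29.8 and 13.9 CPM in Trim28 KO, against 5.26 and 6.92 CPM in WT (log2 fold change of 1.84 ± 0.37, adjusted p = 0.0136). Ctsl, which encodes cathepsin L, had a log2 fold change of 0.73 ± 0.21. Ctsk was not called without Trim28 KO 1 (adjusted p = 0.0619) or Trim28 KO 2 (adjusted p = 0.0981), nor Ctsl without Trim28 KO 1 (adjusted p = 0.214), and the log2 fold change of Ctss was 1.19 without Trim28 KO 1. In the same libraries the 6 macrophage markers summed to 239 and 159 CPM in Trim28 KO, against 89.1 and 89.7 CPM in WT, 4 of the 6 rose and none was at 0. The part of macrophages in the values of Ctss and Ctsl was not tested. No list of osteoclast markers was read, and the part of osteoclasts in the values of Mmp9 and Ctsk was not tested.

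Of 11 receptor genes, 10 were tested, 3 rose and 1 fell. Neu1 encodes the neuraminidase subunit of the elastin receptor complex and of the lysosome, and had 79.6 and 75.6 CPM in Trim28 KO, against 32.3 and 23.1 CPM in WT (log2 fold change of 1.49 ± 0.20, edgeR quasi-likelihood adjusted p = 9.26e-06). The other genes of that complex in the list, Glb1 (0.11 ± 0.19) and Ctsa (0.47 ± 0.20), were not called. Itga8 (1.38 ± 0.25) and Itga5 (0.78 ± 0.20), which encode integrin alpha subunits that pair with beta 1 and bind RGD sites, also rose. Itgb3, whose integrin alpha v beta 3 binds the RGD site of fibrillins and is abundant on osteoclasts, had 14.9 and 23.2 CPM in Trim28 KO, against 54.2 and 73.4 CPM in WT (log2 fold change of -1.74 ± 0.23, adjusted p = 2.59e-05). Itga5 was not called without Trim28 KO 2 (adjusted p = 0.0740). None of 6 matrix proteins that bind fibrillins, fibulins or elastin was called, and their log2 fold changes ran from -0.25 (Tnc, which encodes tenascin-C) to 0.22, so neither fibronectin nor versican was called.

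**Figure D5:**
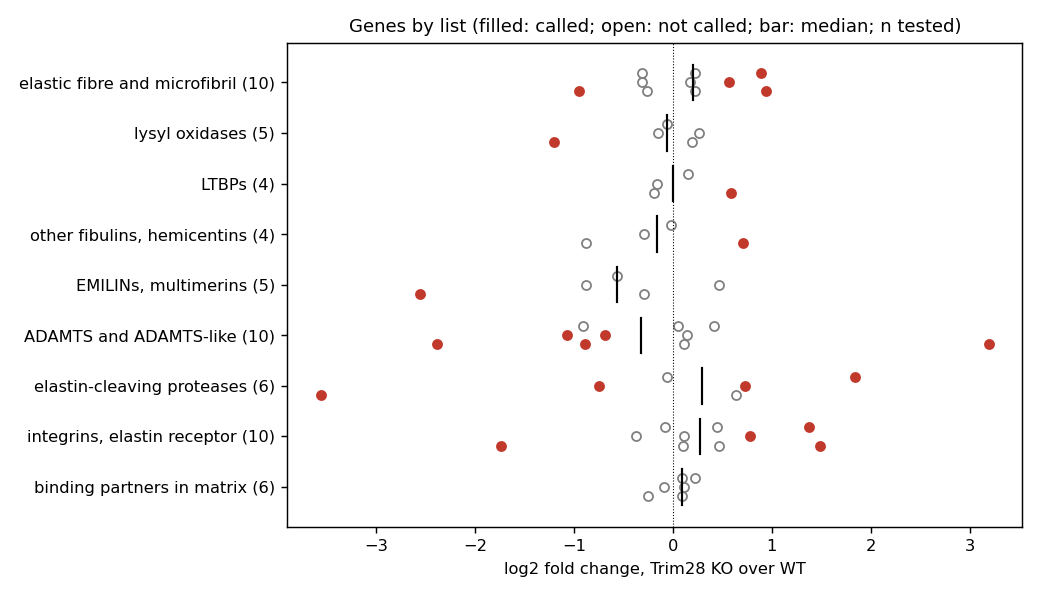
Log2 fold change, Trim28 KO over WT, of each tested gene by list, filled where the adjusted p was under 0.05, with a bar at the median of each list and the number tested in brackets. The 10 elastic fibre and microfibril genes lay within -0.95 and 0.94, while single partner genes reached -3.56 (Mmp9) and 3.20 (Adamtsl5).

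Cells other than chondrocytes also make these proteins, and in bulk RNA fewer cells of a type and less RNA per cell cannot be told apart. The calls of markers stand beside 8.64% of all genes tested that rose and 8.77% that fell. The 8 markers of perichondrium and fibroblasts, cells in which microfibril genes are active, summed to 13512 and 18427 CPM in Trim28 KO, against 50767 and 33638 CPM in WT, and 5 of the 8 fell, none rose and none was at 0. Col1a1 alone gave 8258 and 11921 CPM of these sums in Trim28 KO, against 37380 and 21087 CPM in WT. Of 6 tendon markers 3 fell and none rose, with sums of 2510 and 2844 CPM in Trim28 KO, against 3467 and 3259 CPM in WT. The 8 smooth muscle and pericyte markers, from cells that produce much elastin in vessels, summed to 335 and 319 CPM in Trim28 KO, against 311 and 342 CPM in WT. Of the 7 tested, 1 was higher and 3 lower, around a median log2 fold change of -0.73. Only Mcam (0.70) and Des (0.62) had positive values, and the genotypes overlapped in Des. The 8 endothelial markers had no call, with sums of 399.7 and 449 CPM in Trim28 KO, against 547 and 460.1 CPM in WT. Of 6 osteoblast markers 5 fell and none rose, with sums of 219 and 342 CPM in Trim28 KO, against 1052 and 1111 CPM in WT. The called fibroblast, tendon and osteoblast markers thus fell. Among the called elastic fibre and microfibril genes Mfap4 fell (-0.95), whereas Fbn2 (0.89), Fbln5 (0.94) and Efemp2 (0.57) rose. Of the markers of these lists that were not called, Prrx1 (0.51), Scx (0.12) and Bglap (1.19) had positive log2 fold changes and the rest negative ones. In Prrx1 and Bglap both Trim28 KO libraries lay above both WT libraries. The part of these cells in the values of Mfap4, Fbn2, Fbln5 and Efemp2 was not tested. Of 8 skeletal muscle markers 1 rose and 1 fell, with sums of 1125 and 425 CPM in Trim28 KO, against 593 and 771 CPM in WT. Of 6 red blood cell markers 5 were tested and 4 fell, with sums of 40.1 and 45.3 CPM in Trim28 KO, against 129 and 174 CPM in WT. Markers of mesothelium summed to at most 1.36 CPM in any library.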

How the data were processed

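The deposited file holds raw counts of paired-end fragments per gene for 4 libraries. Per the file headers, featureCounts 1.6.4 assigned fragments to exons of GENCODE release M23 (mm10) and totalled them per gene name, without strand, multi-mapping or overlap settings, so a gene and its antisense partner cannot be told apart and fragments in shared exon bases go uncounted. The aligner is not given in the sources used here. Per the submitters' processing notes, Subread 1.6.4 was used. Gene positions and exon overlaps were read from GENCODE M21, which is on the same assembly (GRCm38).

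Genes were kept by filterByExpr (16639 of 55228), scaled by TMM, and tested with edgeR 4.0.16 (quasi-likelihood, robust, no covariate; limma 3.58.1, DESeq2 1.42.0, R 4.3.3), with Benjamini-Hochberg adjustment over all genes tested. The SE is the log2 fold change divided by the square root of F. The genotype of each library came from its label. The common biological coefficient of variation was 16.3%. Counts of both Trim28 KO libraries (chi-square of 24.6 per degree of freedom) and of both WT libraries (30.6) differed beyond sampling noise. The 10 genes and all lists were chosen with earlier results of these data known. Text names all 10 genes, Trim28, up to 4 called genes per list by p-value, or else the smallest p. It adds the fifth called ADAMTS gene, the uncalled Emilin1, Efemp1, Glb1 and Ctsa, single markers, and the genes nearest in profile. Alternatives were RLE, upper-quartile and library-size scaling, no filter, 5 CPM in 2 libraries, DESeq2, limma-voom, a replicate block, and leaving out each library.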

Additional observations from a re-analysis of the deposited data

How the results depend on the processing

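Over the alternatives, the log2 fold change ran from 0.77 to 1.01 for Fbn2, from 0.80 to 1.07 for Fbln5, from -1.13 to -0.78 for Mfap4 and from 0.51 to 0.67 for Efemp2. The length of Fbn1 without bases shared with Gm9913 was chosen after seeing the data. Eln ranged from -0.60 without WT 2 to 0.13 without WT 1 (adjusted p = 0.815), Fbn1 from -0.58 without Trim28 KO 2 to 0.0052 without Trim28 KO 1 (adjusted p = 0.992), and Tnc from -0.60 without Trim28 KO 2 to 0.044 without Trim28 KO 1 (adjusted p = 0.947). None of these 3 was called under any setting.

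Leaving out 1 library moved the number of all genes higher between 702 and 1442 and lower between 572 and 1406. The fewest, 702 and 572, came without Trim28 KO 1, and 906 and 807 came without Trim28 KO 2. Among the 10 genes it gave 1 to 2 higher and 0 to 1 lower. It gave 0 to 1 higher among lysyl oxidases, 0 to 1 higher among latent TGF-beta binding proteins, 0 to 1 higher and 0 to 1 lower among other fibulins, 0 to 1 higher and 1 to 2 lower among EMILINs, 1 to 5 lower among ADAMTS genes, and 1 to 4 higher and 1 to 3 lower among elastin-cleaving proteases. Upper-quartile scaling left 0 latent TGF-beta binding proteins higher. With no filter on low counts, 1 other fibulin or hemicentin was lower and 4 elastin-cleaving proteases higher. The cause of these shifts was not tested.

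Labels give both genotypes replicates 1 and 2 without saying that a number marks a shared litter or batch, and deviations of same-numbered libraries had a correlation of -0.05 across genes. With the replicate number as a block, 1477 genes were higher and 1444 lower, and 0 EMILINs were lower. The calls of the 10 genes stayed at 3 higher and 1 lower. The SE of the log2 fold changes of the 10 genes ran from 0.19 to 0.25. Fbln1 (0.22 ± 0.19), Mfap2 (0.18 ± 0.21) and Mfap5 (0.22 ± 0.21) had log2 fold changes close to their SE and were not called. Whether differences of that size can be detected with 2 libraries per genotype was not tested.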

Other observations

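The genes whose levels over the 4 libraries lay nearest to Fbln5, Mfap4 and Fbn2, the 3 with the smallest p-values, were sought among 11613 genes averaging 5 CPM or more, by the Euclidean distance of centred log2 CPM (0.01 CPM added). Nearest to Fbln5 were Sdf2l1 (distance of 0.022), Cib1 (0.031) and Gm4799 (0.039). Nearest to Mfap4 were Abtb1 (0.041), Sema4d (0.046) and Styx (0.054). Nearest to Fbn2 were Arsa (0.035), Aff3 (0.046) and Ccdc88c (0.052). With 4 libraries and this many genes, close neighbours occur for any gene, so these are descriptions only.

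Eln held 45.9% and 45.5% of the summed counts of the 10 genes in Trim28 KO, against 58.0% and 47.9% in WT. Per exon base its share was 27.3% and 26.7% in Trim28 KO, against 33.6% and 25.8% in WT, and the genotypes overlapped. The 10 together took 0.349% and 0.391% of all counts in Trim28 KO, against 0.414% and 0.326% in WT.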
